A study of Mus musculus with 3 samples.

Results

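The Slc25 genes encode the mitochondrial carrier family, and this account follows the ATAC-seq peaks at their promoters and in their gene bodies. Members were the protein-coding genes of the mouse annotation whose symbol is Slc25a followed by a number. This gave 47 members of 22028 protein-coding genes. The study compared pre/pro-B-cell lines made from mouse bone marrow, which carry the BCR-ABL(p185) oncogene delivered by a retrovirus. The WT lines came from mice homozygous for wildtype CDK6, a cyclin-dependent kinase, and the K43M lines from mice homozygous for a CDK6 whose lysine 43 is replaced and which is kinase-dead. All lines of both genotypes carry BCR-ABL(p185), so no untransformed cells entered the comparison. ATAC-seq marks open chromatin by the insertion of a transposase, and each library was deposited as a list of peaks.

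Each genotype had 2 lines, hence 4 lists: WT unnumbered, WT replicate 2, K43M replicate 1 and K43M replicate 2. The list called WT unnumbered belongs to no labelled sample and was placed with WT from the design text, so the counts of members and regions, and most of the differences given for single members, were also computed without it. The lists held between 33038 and 39038 peaks, the most in K43M replicate 1, with median summit pileups of 22 to 26 read ends. A mutation of 1 residue cannot be seen in a peak list, so the genotypes themselves could not be checked here. Of 7 B lineage markers, 6 had a promoter peak in all lists, and Cd79b, which encodes a part of the B cell receptor, lacked one in K43M replicate 2. Of the other markers, 1 of 4 T lineage genes (Lck), 0 of 4 myeloid genes and 0 of 3 erythroid genes had one in all lists. Of 4 genes of other tissues, Gfap had a peak in 1 list, WT replicate 2.

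Carriers of this family sit in the inner mitochondrial membrane and move metabolites, nucleotides, cofactors and ions that cannot cross it unaided. Each is built of repeated pairs of membrane helices and takes its substrate through a central cavity that opens to one side of the membrane at a time. They are encoded in the nucleus, made in the cytosol and inserted by the TIM22 import machinery. In dividing blood cells they supply ADP and phosphate for oxidative phosphorylation, export citrate and aspartate for biosynthesis and bring in NAD, folate and iron. A member of the family, Slc25a46, lies in the outer membrane and has lost transport.

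Of the 47 members, 34 had a peak in their promoter window in all 4 lists. The window reached from 2000 bp before to 200 bp after each annotated transcription start, and an overlap of 1 bp counted. These 34 are 72.3% of the family (95% Wilson interval 58.2 to 83.1), against 47.5% of all protein-coding genes. Another 11 members, 23.4% (13.6 to 37.2), had no promoter peak in any list, against 43.5% of all genes. No member had a promoter peak in both WT lists and in neither K43M list, a pattern found at 0.513% of all genes. No member had one in both K43M lists and in neither WT list, a pattern of 1.99% of all genes. The last 2 members, Slc25a27 and Slc25a43, had a peak in some of the lists. Counted list by list, in the order named above, 34, 35, 36 and 35 members had a promoter peak. The intervals cover counting error only, and genes are not replicates of a genotype. Having no peak means that the signal did not pass the caller's threshold.

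**Figure D1:**
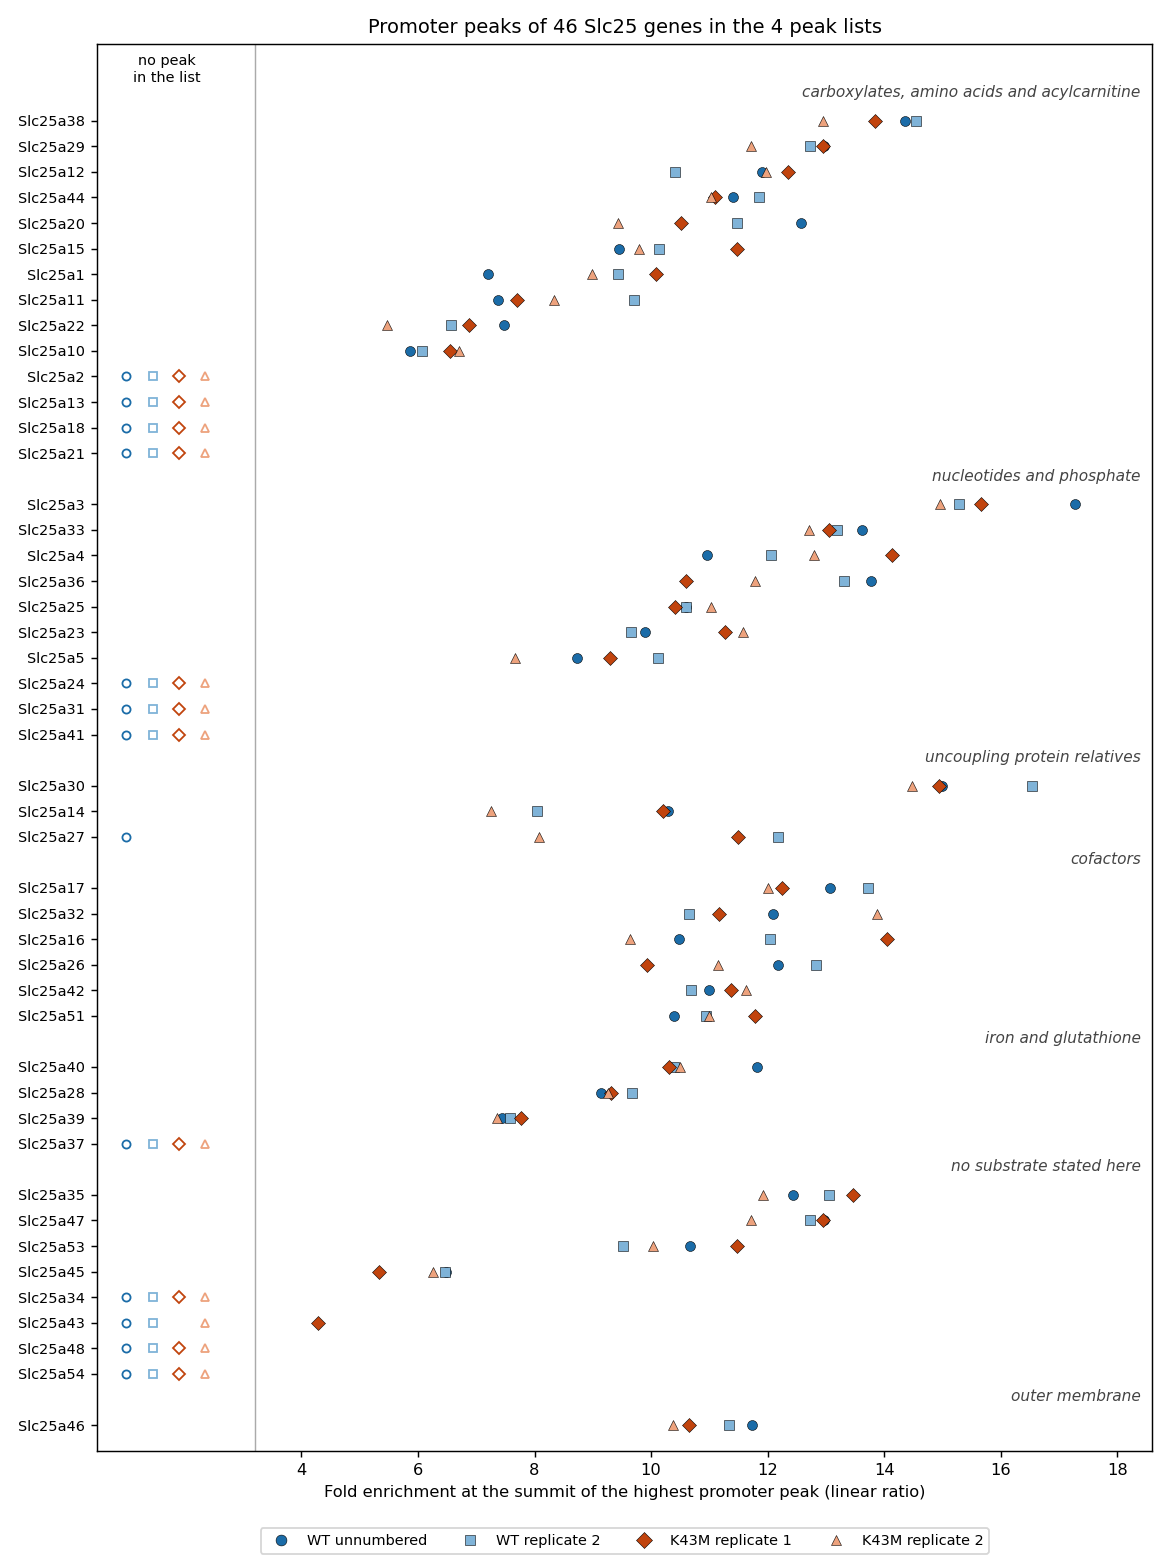
Fold enrichment at the summit of the highest promoter peak (x axis, linear ratio to the library's own background) for 46 of the 47 members (rows, grouped by the substrate their carriers move), with 1 marker for each of the 4 lists and open markers at the left where a list holds no peak; for Slc25a22 and Slc25a53 the highest peak lies at different starts in different lists. In 44 of these members the lists hold either 4 filled or 4 open markers, and Slc25a27 and Slc25a43 are the exceptions.

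The promoters of Slc25a3 and Slc25a31 are shown first because both carry the same match to the motif of NRF-1, a factor known for its role at nuclear genes of respiration, and differ in their peaks. The sequences are the 250 bases before a RefSeq start in GRCm38.p6, 5′ to 3′ on the gene's strand, with motif matches in capitals. Slc25a3 lies at chr10:91123968-91124217 on the minus strand, and the capitals from -213 to -205 are the NRF-1 match. Slc25a31 lies at chr3:40708621-40708870 on the plus strand, with the NRF-1 match from -44 to -36 as the second run of capitals and a match to the SP1 motif as the first.
Slc25a3: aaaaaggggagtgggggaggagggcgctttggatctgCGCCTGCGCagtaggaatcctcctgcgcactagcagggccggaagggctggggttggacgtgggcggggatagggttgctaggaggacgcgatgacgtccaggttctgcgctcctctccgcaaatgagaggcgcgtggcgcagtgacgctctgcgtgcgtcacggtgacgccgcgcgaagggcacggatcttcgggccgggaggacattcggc
Slc25a31: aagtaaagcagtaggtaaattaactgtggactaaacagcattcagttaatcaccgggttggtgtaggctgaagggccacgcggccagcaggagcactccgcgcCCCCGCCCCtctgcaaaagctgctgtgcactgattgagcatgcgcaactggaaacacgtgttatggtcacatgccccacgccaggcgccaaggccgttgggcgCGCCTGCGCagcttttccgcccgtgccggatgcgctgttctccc
All 4 lists had a peak over the Slc25a3 sequence and 0 over that of Slc25a31. RefSeq promoters of 300 bases were at hand for 36 of the 47 members, and of these 2 held the NRF-1 letters GCGCANGCG on either strand, which are 5.56% of members against 10% of 16522 genes. Among genes with a promoter peak in all lists, 1 of 27 members held them, against 17.2% of 8257 genes.

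Next are the promoters of Slc25a20 and Slc25a36, the pair with the largest differences between genotypes among promoters taken by their highest peak, both with lower values in K43M. Slc25a20 (chr9:108661886-108662135, plus strand) shows the ETS letters CCGGAAGT from -79 to -72, and Slc25a36 (chr9:97111042-97111291, minus strand) the CREB letters TGACGTCA from -161 to -154.
Slc25a20: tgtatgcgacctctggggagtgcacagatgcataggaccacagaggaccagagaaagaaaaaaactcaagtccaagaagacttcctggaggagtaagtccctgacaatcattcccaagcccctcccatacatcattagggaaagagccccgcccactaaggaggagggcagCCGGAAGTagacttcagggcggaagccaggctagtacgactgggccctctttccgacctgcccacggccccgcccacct
Slc25a36: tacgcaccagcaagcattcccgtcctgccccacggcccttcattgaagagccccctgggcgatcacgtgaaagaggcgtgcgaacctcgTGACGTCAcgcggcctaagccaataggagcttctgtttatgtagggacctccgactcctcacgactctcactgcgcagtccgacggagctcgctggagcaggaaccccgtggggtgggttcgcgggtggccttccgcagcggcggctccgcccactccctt
The ETS letters were found at 1 of 36 members (5.94% of all genes) and the CREB letters at 2, Slc25a36 and Slc25a25 (2.64% of all genes). SP1 letters, GGGGCGGGG, stood at 6 members (17.9% of all genes), NFY letters, CCAATNA, at 8 (18.9%) and YY1 letters, AAGATGGCG, at 1, Slc25a3 (2.25%). Of the 27 members with a promoter peak in all lists, 1 held ETS, 2 CREB, 5 SP1, 7 NFY and 1 YY1 letters. The shares of all genes with such peaks were, in this order, 10.6, 4.01, 26, 20.9 and 4.14%. Matches of different motifs did not overlap, and a match of letters describes the sequence and no binding. The NFY matches were at Slc25a21, Slc25a25, Slc25a28, Slc25a29, Slc25a30, Slc25a42, Slc25a47 and Slc25a53, and in 6 of these 8 a sequence holding the match lay under a peak of all 4 lists. The exceptions were Slc25a21, which has no promoter peak, and Slc25a47, whose RefSeq start lies apart from the peak it shares with Slc25a29. The CREB match of Slc25a25 and part of its NFY matches also lay at starts without a peak.

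The third set compares paralogs and alternative starts, with CpG dinucleotides in capitals. Slc25a12 (chr2:71367756-71368005, minus strand), which had a peak in all lists, holds 6 CpG in these bases, and Slc25a13 (chr6:6217174-6217423, minus strand), which had none, holds 11. Slc25a25 has 3 RefSeq starts, all on the minus strand of chromosome 2. A peak of all 4 lists covered the bases before the start farthest upstream (chr2:32451471-32451720), which hold 19 CpG. No list had a peak over the middle start (chr2:32431152-32431401) or the last (chr2:32424067-32424316), which hold 4 CpG each.
Slc25a12: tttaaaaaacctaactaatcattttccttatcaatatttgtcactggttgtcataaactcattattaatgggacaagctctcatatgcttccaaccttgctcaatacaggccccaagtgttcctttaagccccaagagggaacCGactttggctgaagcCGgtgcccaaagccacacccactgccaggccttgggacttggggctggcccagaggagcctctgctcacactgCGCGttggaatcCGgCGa
Slc25a13: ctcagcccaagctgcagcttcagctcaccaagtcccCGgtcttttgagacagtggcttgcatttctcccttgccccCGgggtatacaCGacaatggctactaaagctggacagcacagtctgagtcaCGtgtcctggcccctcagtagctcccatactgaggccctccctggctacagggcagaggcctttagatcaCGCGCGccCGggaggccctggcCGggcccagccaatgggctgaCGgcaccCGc
Slc25a25, first start: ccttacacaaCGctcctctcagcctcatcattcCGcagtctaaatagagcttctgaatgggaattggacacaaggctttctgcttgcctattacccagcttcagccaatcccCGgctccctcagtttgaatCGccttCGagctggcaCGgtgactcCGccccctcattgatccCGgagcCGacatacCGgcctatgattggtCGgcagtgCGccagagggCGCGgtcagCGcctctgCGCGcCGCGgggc
Slc25a25, middle start: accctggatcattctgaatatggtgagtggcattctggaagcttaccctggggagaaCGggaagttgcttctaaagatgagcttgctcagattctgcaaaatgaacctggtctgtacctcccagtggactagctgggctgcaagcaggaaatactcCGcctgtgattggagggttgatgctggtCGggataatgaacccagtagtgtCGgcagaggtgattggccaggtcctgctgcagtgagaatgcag
Slc25a25, last start: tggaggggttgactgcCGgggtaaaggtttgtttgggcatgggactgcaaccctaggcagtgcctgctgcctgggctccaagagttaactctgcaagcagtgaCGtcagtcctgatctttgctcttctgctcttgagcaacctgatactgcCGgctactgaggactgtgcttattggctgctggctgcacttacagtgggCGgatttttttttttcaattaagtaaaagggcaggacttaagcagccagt
Taking the start with the most CpG for each gene and 300 bases around it, the 27 members with a sequence and a peak in all lists held a median of 24 CpG (7 to 51). Not all of these sequences lay under such a peak: those of Slc25a47 (7 CpG), Slc25a45 (7) and Slc25a23 (15) lay under a peak of 0, 1 and 1 lists. The 8 members with a sequence and no promoter peak held a median of 14.5 (1 to 22). Over all genes the medians were 23 and 4, so the median of the members without a peak lay above that of all such genes.

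The 34 promoters with a peak in all lists had higher medians than all genes with such peaks. In WT unnumbered their fold enrichment had a median of 11.2 (5.86 to 17.3), against 10 over the 10460 genes, and in the other lists the medians were 10.8, 11.2 and 11.03, against 10, 10.3 and 9.81. No test was made of this difference. The peak shared by Slc25a29 and Slc25a47 counts for both genes here. The summit of the highest peak lay within 100 bp of a start in 24 to 26 of the 34 members in each list, and in 17 of them in all lists. By substrate, carriers of nucleotides and phosphate had a median of 12.4, those of cofactors 11.6, those of carboxylates, amino acids and acylcarnitine 10.6 and those of iron and glutathione 9.34.

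The ADP/ATP carriers, which exchange cytosolic ADP for ATP made in the matrix, had peaks at 2 of 3 promoters. Slc25a4, also known as Ant1, had fold enrichments of 10.96 and 12.1 in the WT lists and 14.1 and 12.8 in the K43M lists. Fold enrichment, as deposited, divides the read ends piled up at a summit by those the peak caller took as local background. The same small constant was added to each before the division. Where 4 values stand in a row, they follow the order of the lists above. Both K43M values lay above both WT values, with means of 13.5 ± 0.954 in K43M and 11.5 ± 0.778 in WT (SD, n = 2 each). The difference in log2 fold enrichment, after centring each list on its median over 21012 shared regions, was 0.23 (SE 0.12, limma adjusted p = 0.471) and did not pass the threshold of 0.05. Slc25a5, or Ant2, the isoform of dividing cells, had 8.72, 10.1, 9.29 and 7.67 in the order of the lists, and the genotypes overlapped. A second peak, 695 to 733 bp downstream of the nearest start of Slc25a5, had 4.83 in WT unnumbered, 5.41 in K43M replicate 1 and 6.59 in K43M replicate 2 and was missing in WT replicate 2. Slc25a31, or Ant4, known from the germ line, had no promoter peak in any list, and the nearest summit lay 14167 bp from its start in WT unnumbered and 36304 to 36567 bp from it in the other lists. Slc25a4 and Slc25a5 were therefore the ADP/ATP carriers with promoter peaks in these lines.

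Slc25a3, which imports the phosphate for ATP synthesis, had the highest mean promoter value of the family, 15.8. Its peak at chr10:91123227-91124297 had 17.3 and 15.3 in WT and 15.7 and 14.9 in K43M, with summits within 8 bp of a start in every list. The values of the genotypes overlapped, and the log2 difference was -0.08 (SE 0.10, limma adjusted p = 0.806). The pyrimidine nucleotide carriers Slc25a33 and Slc25a36 were both open in all lists. Slc25a36 had 13.8 and 13.3 in the WT lists and 10.6 and 11.8 in the K43M lists, so the genotypes did not overlap. Its log2 difference of -0.27 (SE 0.13, limma adjusted p = 0.413) was the lowest among promoters taken by their highest peak and did not pass the test. Of the carriers that exchange ATP-Mg for phosphate, Slc25a23 and Slc25a25 had promoter peaks in all lists, and Slc25a24 and Slc25a41 had none. Slc25a23 was 9.90 and 9.65 in WT and 11.3 and 11.6 in K43M. Its peak is shared with the promoter of Crb3, and its summits lay at -810 to -552 bp from the nearest start of Slc25a23. A separate peak with its summit at -37 bp was found in K43M replicate 1 alone, with 4.01.

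All 7 carriers of cofactors had a promoter peak in all lists. Among others, they serve coenzyme A or its precursors (Slc25a16, Slc25a42 and, in peroxisomes, Slc25a17), folate and FAD (Slc25a32), NAD (Slc25a51) and S-adenosylmethionine (Slc25a26). Their mean values ran from 11.03 at Slc25a51 to 12.8 at Slc25a17. Slc25a51 had 10.4 and 10.9 in WT and 11.8 and 11 in K43M, with a log2 difference of 0.10 (SE 0.13, limma adjusted p = 0.831). Slc25a26, the S-adenosylmethionine carrier, had 12.2 and 12.8 in WT and 9.94 and 11.1 in K43M at its promoter. The K43M values lay below the WT values, and the log2 difference was -0.25 (SE 0.14, limma adjusted p = 0.507). The largest SD within a genotype among all member promoters, 3.12 in K43M, was at Slc25a16, with 14.04 in K43M replicate 1 and 9.64 in K43M replicate 2.

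Among the 14 carriers of carboxylates, amino acids and acylcarnitine, 10 had promoter peaks in all lists and 4 in none. Slc25a1 exports citrate for the synthesis of fatty acids, and its promoter had 7.20 and 9.44 in WT and 10.1 and 8.98 in K43M. WT unnumbered was the lowest list there and the log2 difference was 0.21 (SE 0.18, limma adjusted p = 0.7005). The aspartate/glutamate carriers of the malate-aspartate shuttle divided. Slc25a12, or aralar, had 11.9, 10.4, 12.4 and 11.96, and Slc25a13, or citrin, had no peak. Slc25a20, which carries acylcarnitines to beta-oxidation, had 12.6 and 11.5 in WT and 10.5 and 9.43 in K43M. Its log2 difference was -0.27 (SE 0.13, limma adjusted p = 0.443), with each K43M value below each WT value. A separate region at an internal start of Slc25a20, chr9:108672281-108672977, had 7.35 and 7.28 in the K43M lists and no peak in either WT list. The transcript annotated there is a retained-intron form. The lowest promoters in this group were Slc25a10, the dicarboxylate carrier, with 5.86, 6.07, 6.55 and 6.70, and Slc25a22, a glutamate carrier, with 7.48, 6.57, 6.88 and 5.19 at chr7:141437080-141437883. The K43M values of Slc25a10 lay above the WT values by a log2 difference of 0.15 (SE 0.20, limma adjusted p = 0.826). At Slc25a22 they overlapped, with a log2 difference of -0.23 (SE 0.21, limma adjusted p = 0.728). A second region at another start of Slc25a22, chr7:141435106-141435713, had 4.10 and 3.81 in WT and 4.07 and 5.47 in K43M, a log2 difference of 0.26 (SE 0.21, limma adjusted p = 0.686), so the signs at its starts differed and neither passed the test. Slc25a38, linked to glycine import for heme synthesis, was among the highest with 14.3, 14.5, 13.8 and 12.96, and its summits lay 380 to 389 bp downstream of the nearest start. The members without a promoter peak here were Slc25a2, Slc25a13, Slc25a18 and Slc25a21, which belong to ornithine, aspartate/glutamate, glutamate and oxodicarboxylate transport.

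The mitoferrins, which import iron, also divided. Slc25a28, or mitoferrin 2, had 9.13, 9.68, 9.31 and 9.26, a log2 difference of -0.02 (SE 0.15, limma adjusted p = 0.980). Slc25a37, or mitoferrin 1, which is known from erythroid cells, had no promoter peak. The nearest summit to it was 46717 to 66966 bp away in the 4 lists, in a stretch of 469 kb without a summit in any list. Slc25a39 and Slc25a40, both tied to glutathione import, had peaks in all lists, with means of 7.54 and 10.8. Of the relatives of the uncoupling proteins, Slc25a30 had the second highest mean of the family, 15.2, with 14.98, 16.5, 14.9 and 14.5. Slc25a14 had 10.3 and 8.05 in WT and 10.2 and 7.26 in K43M, so 1 line of each genotype was high. The outer membrane member Slc25a46 had 11.7 and 11.3 in WT and 10.7 and 10.4 in K43M. The last of these values was read at a summit 448 bp downstream of the nearest start.

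Slc25a27 and Slc25a43 were the members whose promoter peak depended on the list. Slc25a27, a relative of the uncoupling proteins known from brain, had 12.2 in WT replicate 2, and 11.5 and 8.08 in the K43M lists, at chr17:43666741-43667519, a region it shares with the promoter of Cyp39a1. In WT unnumbered the nearest summit lay 109489 bp from its start. Without WT unnumbered it joined the members with a peak in all lists, and without WT replicate 2 it became the 1 member with peaks in K43M alone. Slc25a43 on the X chromosome had a promoter peak of 4.29, with a pileup of 11 read ends and a -log10 q of 4.01, in K43M replicate 1. This peak was lost when peaks needed a -log10 q of at least 5. Of the 8 members whose substrate is not stated here, Slc25a35, Slc25a45, Slc25a47 and Slc25a53 had a promoter peak in all lists and Slc25a34, Slc25a48 and Slc25a54 in none. The peak of Slc25a47 is the one it shares with Slc25a29, apart from its RefSeq start. Slc25a45 had the lowest mean of the members with a peak in all lists, 6.13, with 6.49, 6.46, 5.34 and 6.25.

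The 11 members without a promoter peak lay at varied distances from the nearest open region. The median distance from the first start to the nearest summit in any list was 14.2 kb, against 35.1 kb over the 9383 genes without a promoter peak that were measured. Slc25a34 and Slc25a2 were nearest, at 5063 and 5404 bp. Slc25a13 was farthest, at 325132 bp, in the middle of 959 kb of chromosome 6 (5583180 to 6542305) that held no summit in any list and that also contains Dync1i1. Slc25a54 and Slc25a24 are neighbours on chromosome 3 and share a stretch of 222 kb without a summit. The nearest peak to Slc25a48 was 9011 and 8967 bp upstream in the K43M lists, and 84088 and 173657 bp away in the WT lists. On its chromosome, 13, the median local background relative to all autosomes was 0.05 and -0.01 on the log2 scale in WT and -0.43 and -0.50 in K43M. No test was made of these distances, nor of the part of the background in them. How often other genes have a nearer peak in both K43M lists is not given here.

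**Figure D2:**
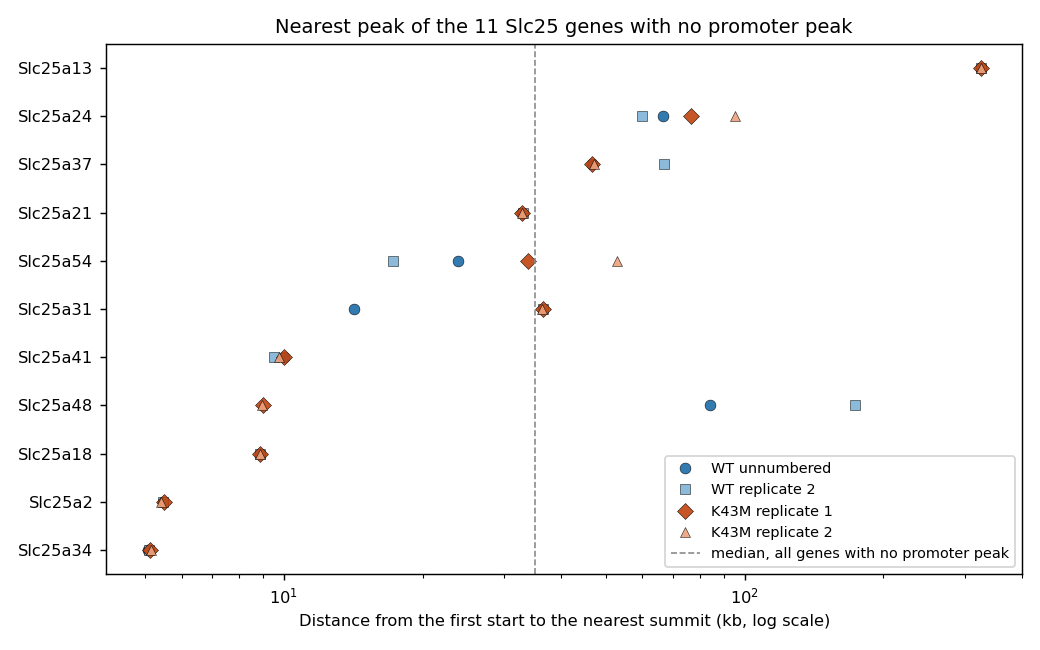
Distance from the first annotated start to the nearest summit (x axis, kb, log scale) in each of the 4 lists (markers) for the 11 members with no promoter peak (rows), with a dashed line at the median of all such genes, 35.1 kb. Slc25a13 stands alone at 325 kb in every list, and Slc25a48 shows K43M markers at 9011 and 8967 bp and WT markers at 84088 and 173657 bp.

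Peak height was compared over the regions that had a peak in all lists, fitted with limma over all 21012 of them. Of these, 13 were higher in K43M (0.0619%) and 10 lower (0.0476%) at an adjusted p under 0.05. The 44 member regions gave 0 higher and 0 lower. Of these 44, 2 had an unadjusted p under 0.05, against 2571 of all 21012 regions. The 2 were a gene body region of Slc25a26 and the first start of Slc25a53. With 2 lines per genotype, p-values measure the spread between these lines, moderated by limma toward the trend over all regions (prior degrees of freedom 10.4). At a single region the standard error therefore came in large part from other regions. In bulk libraries, fewer cells with an open site and less signal per cell cannot be told apart. Promoters were taken by their highest peak, which leaves out second regions of Slc25a22, Slc25a25, Slc25a51 and Slc25a53 with a peak in all lists. At the 33 distinct regions, since Slc25a29 and Slc25a47 share 1 peak, 13 log2 differences were above 0 and 20 below. Their median was -0.05, against 0.00 over all regions. They ran from -0.27 at Slc25a36 to 0.24 at Slc25a53, and their median standard error was 0.14. The 95% intervals reached from -0.68 at Slc25a22 to 0.59 at Slc25a1.

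At 7 of the 33 promoters both K43M values, on the centred log2 scale, lay above both WT values (Slc25a4, Slc25a10, Slc25a12, Slc25a15, Slc25a23, Slc25a51 and Slc25a53), a pattern of 21.3% of all regions. At 7 others both lay below (Slc25a17, Slc25a20, Slc25a26, Slc25a29, Slc25a36, Slc25a38 and Slc25a46), a pattern of 21% of all regions. Both counts were near these background shares. The order of the 33 promoters by fold enrichment was alike in the lists, with a Spearman rho of 0.896 between the WT lists, 0.816 between the K43M lists and 0.713 to 0.846 between lists of different genotypes. These are correlations across promoters, which share libraries, and are given as a description.

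**Figure D3:**
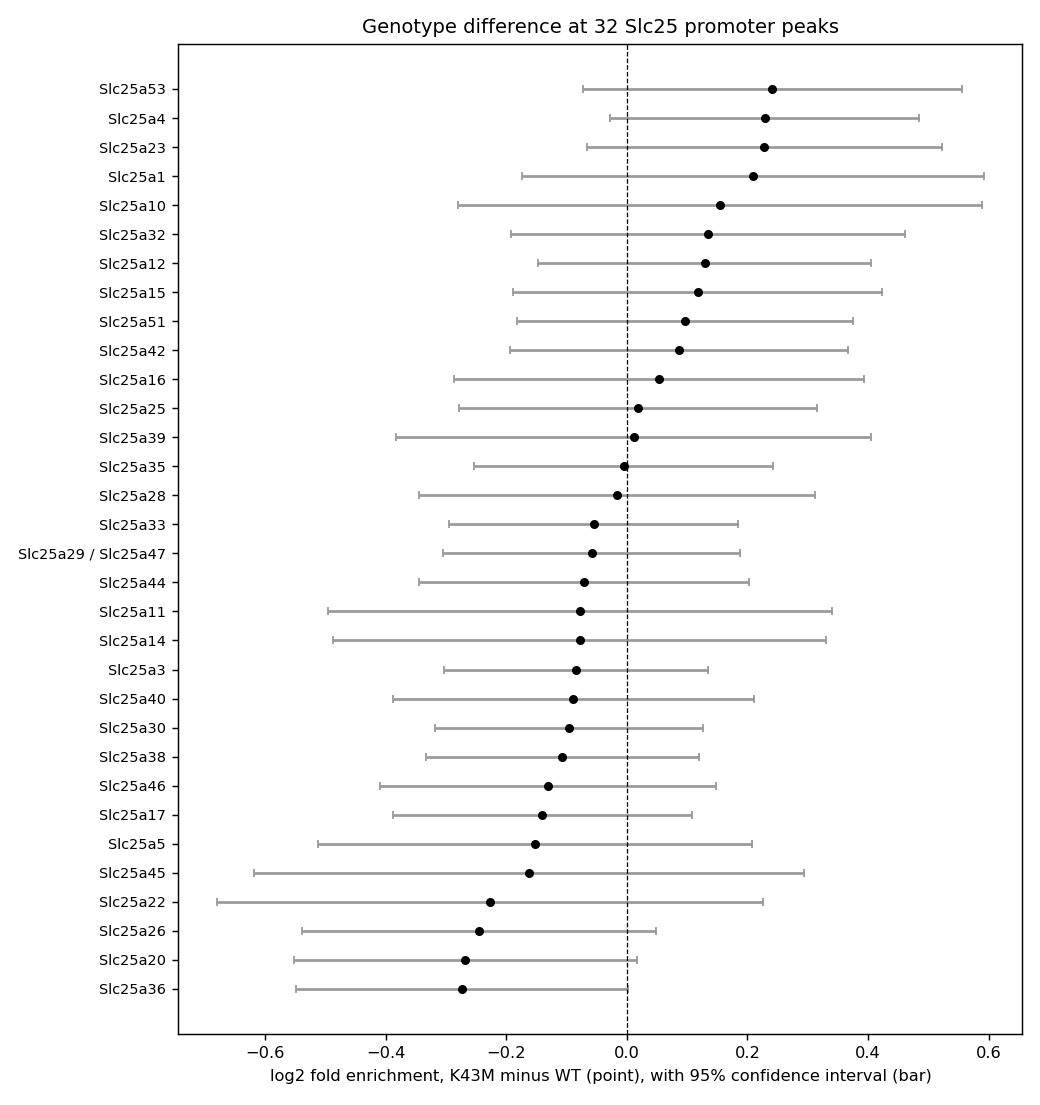
Difference in log2 fold enrichment, K43M minus WT (x axis), at 32 of the 33 distinct member promoters taken by their highest peak (rows). Points are the limma estimates, bars the 95% confidence intervals and the dashed line 0. All bars drawn cross 0, and the estimates run from -0.27 at Slc25a36 to 0.24 at Slc25a53. Second promoter regions are not drawn, among them the first start of Slc25a53 (-0.38, 95% interval -0.75 to -0.02).

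Slc25a53, a carrier on the X chromosome whose substrate is not stated here, had 2 promoter regions in all lists that differed in opposite directions. The region at its first start, chrX:137037742-137038797, had 10.7 and 9.20 in WT and 7.58 and 7.56 in K43M, a log2 difference of -0.38 (SE 0.17, limma adjusted p = 0.382). The region at an internal start, chrX:136992582-136993562, which is also the promoter of Zcchc18, had 8.68 and 9.51 in WT and 11.5 and 10.03 in K43M, a log2 difference of 0.24 (SE 0.14, limma adjusted p = 0.551). In both regions the genotypes did not overlap, in neither did the difference pass the test, and the difference between the starts was not tested. The local background recovered at the internal start was 2.8 and 3.1 read ends in WT and 3.62 and 5.78 in K43M. The summit pileups there were 32 and 38 in WT and 52 and 67 in K43M, and a fit on pileups gave a log2 difference of 0.87 (limma adjusted p = 0.0415). The same fit turned the first start to 0.25 (limma adjusted p = 0.615). At the first start the pileups were 41 and 31 in WT and 39 and 40 in K43M. The local background at the first start was 2.94 and 2.48 in WT and 4.28 and 4.42 in K43M. The part of the local background in these values was not tested.

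Slc25a46 had summit pileups of 71 and 60 in WT and 48 and 37 in K43M, a wider gap than in its fold enrichments. In K43M replicate 2 the summit lay at 448 bp from the nearest start, and at -40 to -20 bp in the other lists. These pileups are not scaled for depth, and the median pileup over all peaks was 26 and 23 in WT and 23 and 22 in K43M. The median local background of regions on its chromosome, 18, relative to all autosomes, was 0.24 and 0.28 on the log2 scale in the WT lists and -0.16 and -0.20 in the K43M lists. Its log2 difference in fold enrichment was -0.13 (SE 0.13, limma adjusted p = 0.755). The part of the chromosome-wide background in the pileups was not tested.

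Gene bodies of the family held 31 regions outside promoter windows, in 19 members, and 21 of these lay within introns. Of the 31, 7 had a peak in all lists, 6 in both K43M lists and neither WT list, and 0 in both WT lists and neither K43M list. Over the gene bodies of all genes, 9.77% of 18649 regions had the K43M pattern and 5% the WT pattern. The 6 regions were in Slc25a15, Slc25a17, Slc25a26 (2 regions), Slc25a43 and Slc25a53, all in introns. K43M replicate 1, the list with the most peaks, had a peak in 25 of the 31 regions, and the WT lists in 13 each and K43M replicate 2 in 17. As shares of the member regions, in the order of the lists, these were 41.9, 41.9, 80.7 and 54.8%, against 53.8, 56.0, 70.2 and 58.9% of the regions in all gene bodies. Without K43M replicate 2, so that K43M replicate 1 stood alone, the count of K43M patterns was 13, and with the lists cut to equal numbers of peaks it was 6. The shares of all gene body regions under these settings are not given here, and the 9.77% belongs to the main setting. Regions that coincided with promoters of other genes numbered 4, Dna2 in Slc25a16, Tmem82 in Slc25a34, Rangrf in Slc25a35 and Pmf1 in Slc25a44.

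**Figure D4:**
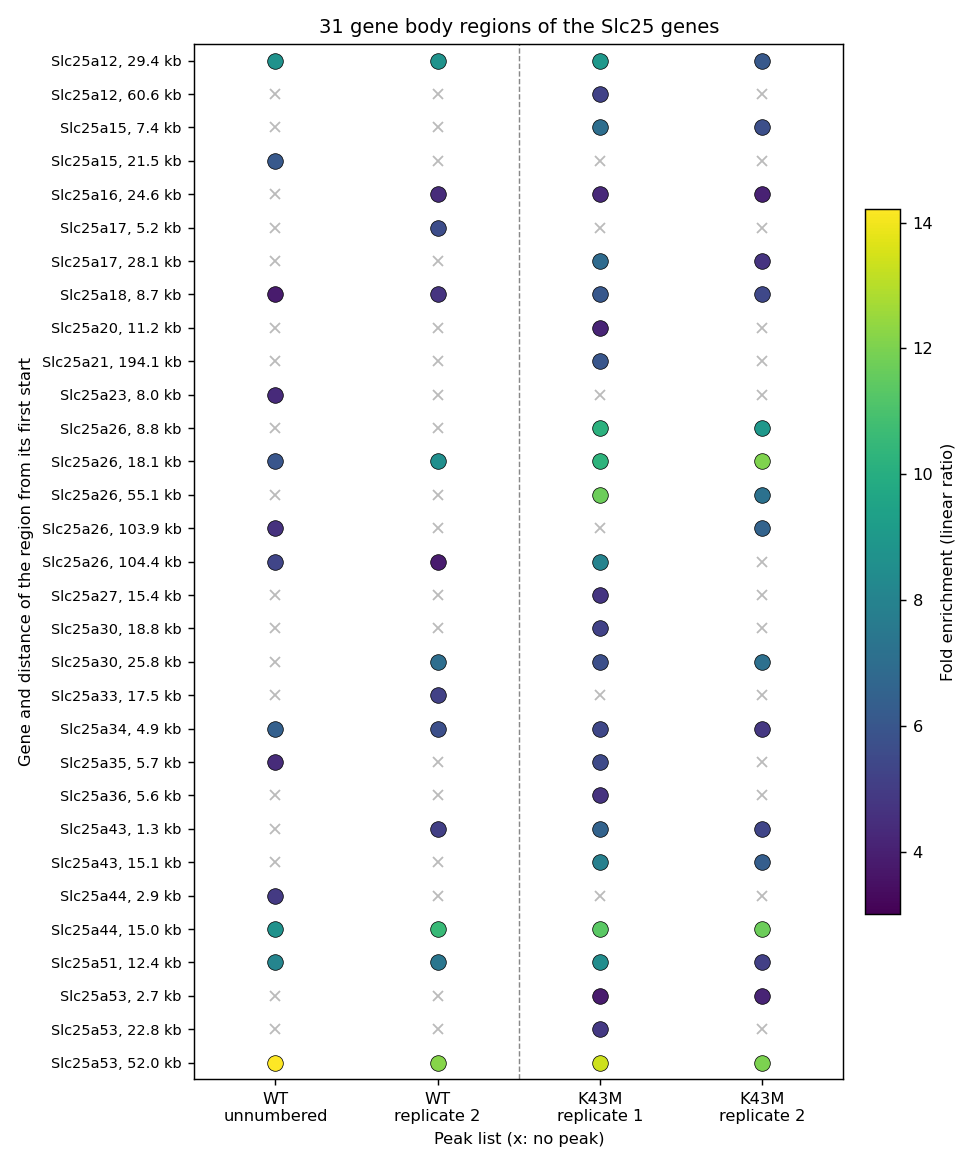
Peaks at the 31 gene body regions (rows, named by gene and by distance in kb from its first start) in the 4 lists (columns); filled circles are coloured by fold enrichment (linear ratio) and crosses mark lists without a peak. The column of K43M replicate 1 holds 25 circles, against 13 in each WT list and 17 in K43M replicate 2.

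Slc25a26 held the most gene body regions, 5, all downstream of a promoter whose K43M values were below WT. An intronic region 18140 bp from its first start, chr6:94518077-94518864, had 5.99 and 8.55 in WT and 10.3 and 12.03 in K43M. Both K43M values were above both WT values. The log2 difference of 0.64 (SE 0.20, 95% interval 0.21 to 1.07, limma adjusted p = 0.211) was the largest of all member regions and did not pass the threshold. Without WT replicate 2, the remaining WT list being the lowest of all, it was 0.90 (limma adjusted p = 0.0106), and without WT unnumbered it was 0.38 (limma adjusted p = 0.496). The regions of Slc25a26 found in both K43M lists alone lay on either side of this region, also within introns. At 8835 bp (chr6:94508729-94509603) the values were 10.2 and 8.98, and at 55150 bp (chr6:94555272-94555689) 11.7 and 7.20. The regions at the 3′ end of the gene, 103896 and 104371 bp from the start, overlapped an exon and had peaks in different lists of both genotypes.

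**Figure D5:**
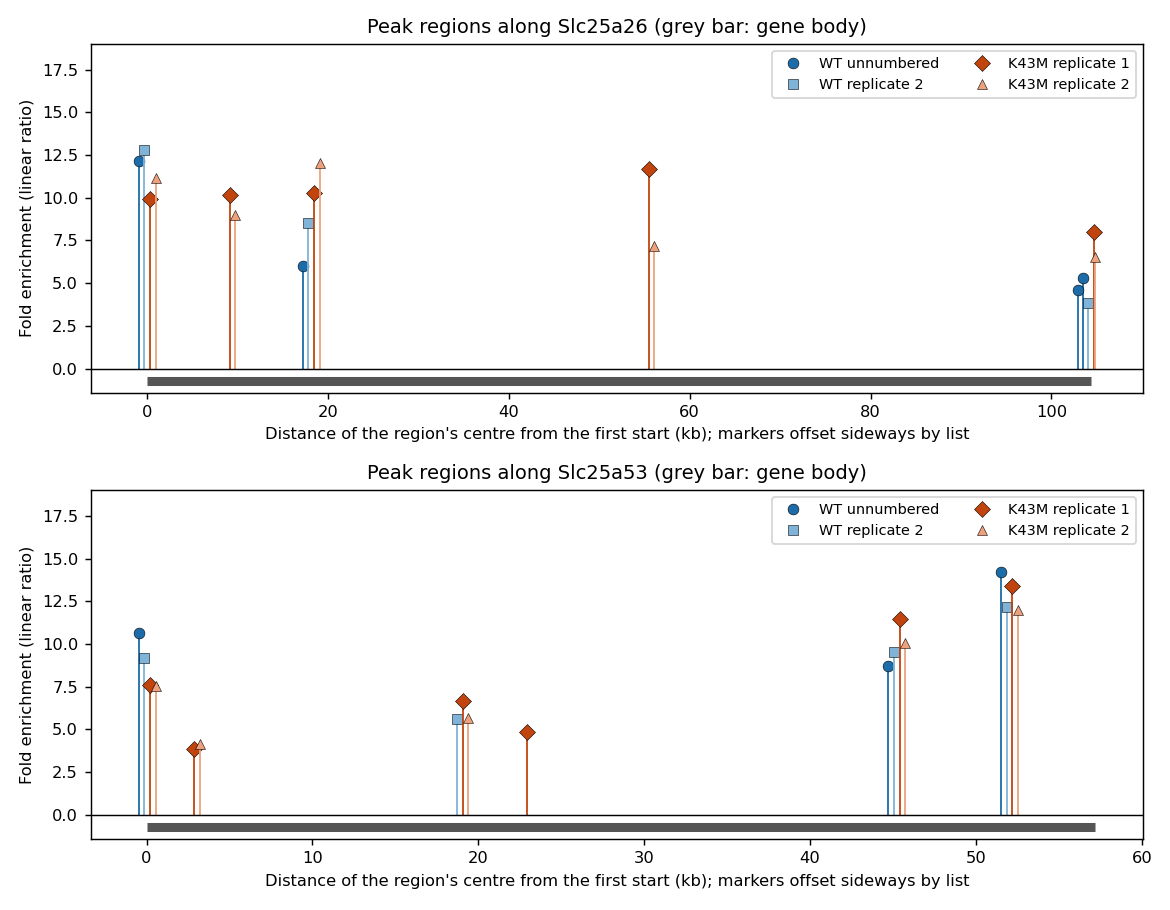
Fold enrichment (y axis, linear ratio) of the peak regions along Slc25a26 (top) and Slc25a53 (bottom) by distance of the region's centre from the first start (x axis, kb), with 1 marker for each list that has a peak and a grey bar for the gene. In Slc25a26 the region at 18140 bp has WT markers at 5.99 and 8.55 below K43M markers at 10.3 and 12.03, and in Slc25a53 the genotypes change order between the first and the internal start.

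Slc25a53 followed with 3 gene body regions, and 6 members had 2. Its region at chrX:136985887-136986672 was the highest gene body region of the family, with 14.2, 12.2, 13.4 and 11.99. Slc25a18, a glutamate carrier with no promoter peak, had an intronic region in all lists at chr6:120781996-120782626, 8733 bp from its start. Its values of 3.83 and 4.71 in WT and 6.04 and 5.43 in K43M did not overlap, with a log2 difference of 0.43 (SE 0.20, limma adjusted p = 0.413). Slc25a43 had an intronic region at 15134 bp with 7.85 and 6.31 in the K43M lists and no peak in WT. Slc25a15, the ornithine carrier, had 7.01 and 5.71 in the K43M lists at 7439 bp, and Slc25a17 6.88 and 4.68 at 28097 bp.

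Other genes of the same pathway were read beside the family. Of the carrier genes with other symbols, Ucp2, Mtch1 and Mtch2 had promoter peaks in all lists, and Ucp1 and Ucp3, the uncoupling proteins of brown fat and muscle, had none. All 12 other mitochondrial membrane transporters, which include the pyruvate carrier subunits Mpc1 and Mpc2, the sideroflexins, the porins Vdac1 to Vdac3, Mcu and Letm1, had peaks in all lists, as did all 6 genes of carrier import, such as Timm22 and Tomm70a. In the limma fit 0 of 3, 0 of 12 and 0 of 6 of their promoters were higher or lower in K43M. Against 2571 of all 21012 regions, 0 of these promoters had an unadjusted p under 0.05. Their median log2 differences were 0.14, -0.04 and 0.03, against 0.00 over all regions. Mtch1 had 14.5 and 13.99 in WT and 15.96 and 16.2 in K43M, a log2 difference of 0.18 (SE 0.10, limma adjusted p = 0.520).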

How the data were processed

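ATAC-seq peaks of 4 cell lines were analysed, and reads were not used. Per the study's methods and processing notes, the authors trimmed reads with Trimmomatic (0.36), mapped them to mm10 with BWA (0.7.15), removed blacklisted regions, multi-mapped and low-quality reads (SAMtools 1.3.1) and called peaks per library with MACS2 (2.1.0). No control or pooling was stated. The deposited fold enrichment is the authors' ratio of summit pileup to local background, with the same small constant added to both. The deposited -log10 p and -log10 q are those of MACS2. Read totals were not given, so depth is known only through pileups and backgrounds, recovered from fold enrichment and -log10 p for 100% of peaks (tolerance 0.005). The lowest background recovered in each list was 0.968 to 1.31 read ends at a summit, or 48.4 to 65.3 per 10 kb. Local backgrounds at single peaks were often higher.

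Genes and starts came from GENCODE mouse release 21, on the build of the lists. Overlapping peaks (1 bp) were merged, and the highest peak stood for a list. Log2 fold enrichment, with no further constant added, was centred on list medians. It was fitted with limma (3.58.1, R 4.3.3, with trend and Benjamini-Hochberg) over all regions with a peak in each list. Scripts were tested on simulated data. Members, lists and tests were chosen with earlier results of these data known. Named in full were members by role, by mixed pattern, with the 5 largest differences, the 3 highest and 3 lowest promoters and the most gene body regions. The region at the first start of Slc25a53, the internal region of Slc25a20, the gene body region of Slc25a18 and Slc25a46, Slc25a14, Slc25a16, Slc25a23 and Slc25a48 were added after their values were seen. Promoter sequences and starts for them were RefSeq's (GRCm38.p6), matched by symbol for 36 members. Of the others, Slc25a2, Slc25a26, Slc25a27, Slc25a32, Slc25a35, Slc25a37, Slc25a41, Slc25a44, Slc25a46 and Slc25a51 are named only. Values of 1 member enter the counts and are not reported here. Alternatives were the peak threshold, peak number, window, transcript set, summit rule, centring, measure, variance model and leaving out each list.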

Additional observations from a re-analysis of the deposited data

How the results depend on the processing

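The count of members with a promoter peak in all lists ran from 32 to 35 over the alternatives, and that of members with none from 11 to 13. Shares of all protein-coding genes under the alternatives are not given here, and 47.5% (all lists) and 43.5% (none) belong to the main setting. Members with peaks in both WT lists alone stayed at 0, and those with peaks in both K43M lists alone were 0 or, when a list was left out, up to 1. Slc25a43 joined the members without a peak at a -log10 q of at least 5, at equal peak numbers, by the summit rule and without K43M replicate 1, Slc25a47 did so with basic transcripts and Slc25a38 with the summit rule, under which Slc25a46 had a mixed pattern. When each list was left out in turn, gene body regions of the WT pattern ran from 0 to 3 and those of the K43M pattern from 6 to 13, the highest without K43M replicate 2. The shares of all gene body regions in these settings are not given here. Member regions higher in K43M ran from 0 to 1 in these fits, the 1 being the Slc25a26 gene body region without WT replicate 2 (0.90), and were 1 on summit pileups, the Slc25a53 internal start (0.87). None was lower under any alternative. Over all regions, the 13 higher and 10 lower calls became 490 and 418 on pileups, 6 and 4 with quantile normalization, 21 and 11 among regions with a mean -log10 q of at least 5, 190 and 62 without WT unnumbered and 254 and 107 without WT replicate 2. They became 0 and 0 without centring, without the variance trend or without either K43M list, with 1973 to 2610 regions at an unadjusted p under 0.05. Fits without a list leave 1 list for a genotype, which is assumed to vary like the others.

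Signs of small differences were not stable. On pileups the promoters of Slc25a22 (0.0042), Slc25a28 (0.057), Slc25a30 (0.032) and Slc25a38 (0.011) and the first start of Slc25a53 (0.25) turned positive. Leaving out lists gave ranges of -0.17 to 0.00095 for Slc25a3, -0.066 to 0.034 for Slc25a28 and -0.33 to 0.0060 for Slc25a45. No cause was tested. No paired analysis was possible because the labelled WT and K43M lines share a single replicate number. Summits of 17 to 122 read ends at the highest peaks of the 34 members open in all lists, and of 11 to 36 at Slc25a27 and Slc25a43, and 2 lines per genotype, limit the precision.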
